A study of Homo sapiens with 16 samples.

Results

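RNA polymerase I (Pol I) makes the ribosomal RNA precursor in the nucleolus, and RNA polymerase III (Pol III) makes tRNAs, 5S ribosomal RNA and other small RNAs. Pol I is brought to the ribosomal DNA by UBTF and the TATA-binding-protein complex SL1 together with RRN3, whereas Pol III is recruited by the factors TFIIIA, TFIIIC and TFIIIB and is held back by the repressor MAF1. Myc is a transcription factor known to raise the output of both polymerases, and Pol III exists in alternative forms that carry either POLR3G or its paralog POLR3GL. The 36 genes examined here encode subunits, initiation factors and the repressor of these enzymes. They were listed by gene symbol and not by a cutoff on measured values, though with earlier results of these data known. All 36 were found among the 60719 gene identifiers counted, on 16 chromosomes.

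The libraries were poly(A)-captured RNA from the human cell line MDA-MB-231, which stems from a triple-negative breast cancer. Parental 231 cells were unedited, and 231:TKO cells carried a CRISPR/Cas9 knockout of TXNIP (thioredoxin interacting protein, an arrestin-family protein that limits glucose uptake) and were derived from single-cell clones. Untreated parental 231 and 231:TKO cells had 2 libraries each. Either population was also transfected with a non-targeting siRNA (siNT) or an siRNA against Myc (siMyc) for 48 hours, which gave 4 groups of 3 libraries, written 231:TKO+siNT and so on. The study describes its 231:TKO libraries, and parental 231 ones without siRNA, as biological replicates. For the siRNA-treated parental 231 libraries the sources used here do not say whether the cultures were separate, so p-values that involve them measure the spread between these libraries, which may be technical.

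TXNIP, the edited gene, had 283 CPM in both untreated parental 231 libraries and 12.4 and 45.5 CPM in the 231:TKO libraries, CPM being a gene's counts relative to its library's total after scaling by the trimmed mean of M-values (TMM). With siNT it had 302 to 323 CPM in parental 231 and 6.54 to 7.92 CPM in 231:TKO cells. MYC had 121 to 144 CPM in the 6 siNT libraries and 58.1 to 67.6 CPM in the 6 siMyc libraries, without overlap. The line's mesenchymal markers were abundant in all 16 libraries, with 1814 to 3117 CPM of VIM and 571 to 1360 CPM of CD44, and ESR1 and PGR stayed at or below 0.31 CPM, while ERBB2 had 76.2 to 106 CPM. CDH1 (E-cadherin, an epithelial gene) had 4.13 to 9.42 CPM in the 8 parental 231 libraries and 0.267 to 1.08 CPM in the 8 231:TKO libraries. PTPRC, a leukocyte gene, had 0.581 to 1.48 CPM in the 8 parental 231 libraries and at most 0.137 CPM in the 8 231:TKO libraries. CD3E was at 0 in 14 libraries, CDH5 in 9 libraries, and the part of CDH1 and PTPRC in the results below was not tested.

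Some libraries stood apart. The 2 untreated 231:TKO libraries deviated from their mean with an SD of 0.228 on the log2 scale over genes, against 0.055 in untreated parental 231. Parental 231+siNT replicate 1 and parental 231+siMyc replicate 3 had SDs of 0.244 and 0.23, against 0.121 to 0.144 in the other siRNA-treated parental libraries, and their deviations had a correlation of 0.94 over genes. For the counts and named genes that rest on this pair, values without its library or with a factor for it are given as well. The siRNA-treated parental and 231:TKO libraries were also counted with different annotation releases, and the number prefixes of their count-column headers differ. The sources used here do not say what a prefix stands for. Under siRNA the genotype therefore cannot be told apart from whatever else differs between these sets of libraries.

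Whether loss of Myc lowers the polymerase genes was tested in each cell population. In 231:TKO cells, 25 of the 36 genes fell and 2 rose after siMyc, against 13.9% and 13.3% of the 22450 genes tested. Among genes averaging 1 CPM or more, as all 36 did, 22.2% fell and 20.9% rose. When the 12 siRNA libraries were fitted together, so that the parental libraries shared in the estimate of the spread, 10 of the 36 genes fell and 0 rose, against 4.38% and 5.28% of 25812 genes. In the fit of the 6 231:TKO libraries, the falls covered all 6 Pol I subunits, both subunits shared by Pol I and Pol III, and 8 of the 10 Pol III subunits. POLR3G fell most, to about 4 CPM from about 13, and the genes that rose were its paralog POLR3GL and the repressor MAF1. In bulk RNA a lower level may reflect fewer cells with the transcript or less transcript per cell, which cannot be told apart.

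POLR3G (chr5:90471748-90514557, GRCh38, + strand) encodes a subunit of the Pol III heterotrimer that opens the promoter. It had 13.3, 12.2 and 13.4 CPM in the 231:TKO+siNT libraries and 3.46, 3.62 and 5.56 CPM in the 231:TKO+siMyc libraries. All siMyc libraries lay below all siNT libraries, at means of 4.21 ± 1.17 and 12.9 ± 0.67 CPM (SD, n = 3). The log2 fold change was -1.65 ± 0.12 (SE), with an adjusted p of 3.6e-09. This and every adjusted p below come from the quasi-likelihood test of edgeR, adjusted by the Benjamini-Hochberg method over all genes tested in the comparison, here 22450.

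POLR3GL (chr1:145964690-145978848, GRCh38, + strand), which takes the place of POLR3G in the other form of the enzyme, went the other way. It had 15.4, 16.7 and 15.8 CPM with siNT and 20.2, 20.7 and 21.1 CPM with siMyc, again without overlap. Its log2 fold change was 0.34 ± 0.07 (SE), with an adjusted p of 0.00074. Per kilobase of gene length, POLR3GL was the more abundant paralog in both groups, at 8.82 ± 0.36 CPM per kb against 3.22 ± 0.17 for POLR3G with siNT, and 11.4 ± 0.25 against 1.05 ± 0.29 with siMyc (SD, n = 3).

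**Figure D1:**
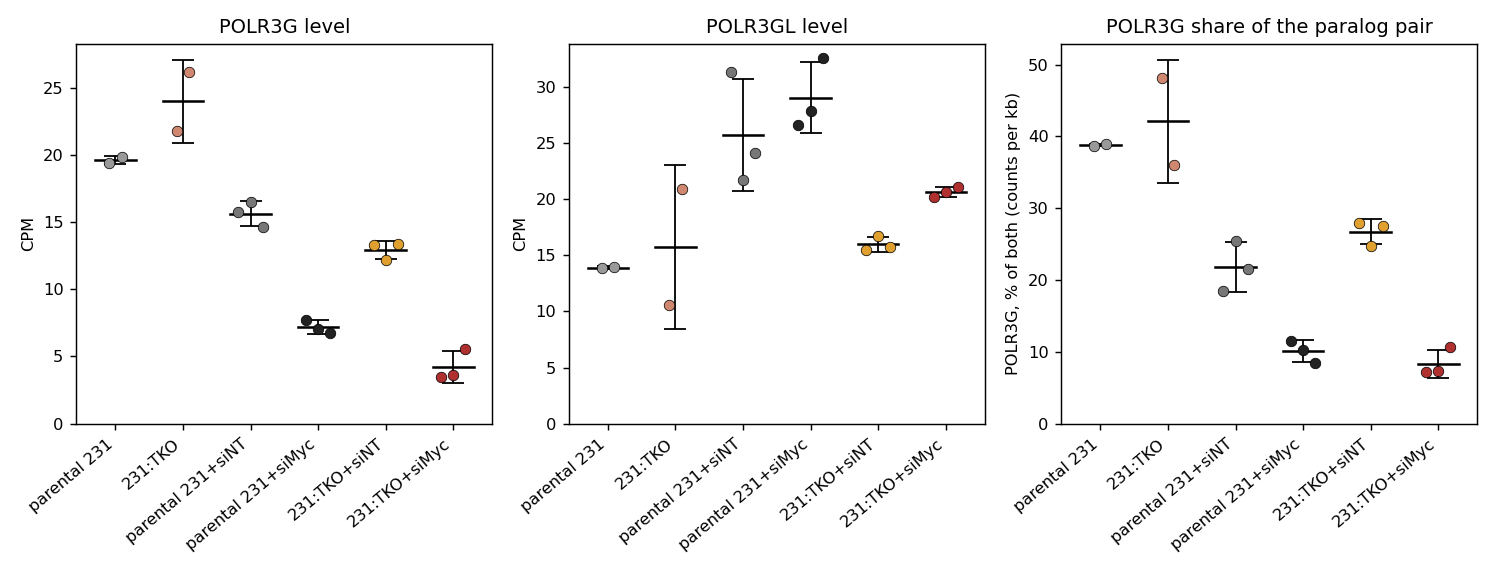
POLR3G level (left, CPM), POLR3GL level (middle, CPM) and the share of POLR3G in the summed counts per kilobase of both genes (right, %) in every library of the 6 groups; points are libraries, bars the mean and SD. POLR3G had its lowest levels in the siMyc groups, 3.46 to 7.74 CPM, where its share was 7.16% to 11.6%, and the untreated 231:TKO libraries lie far apart for POLR3GL, at 10.6 and 20.9 CPM.

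After POLR3G, the falls largest in size were in 3 Pol I subunits, the shared subunit POLR1C and the Pol III subunit POLR3K, at log2 fold changes of -0.91 to -0.64. POLR1E, which pairs with POLR1G in an initiation and elongation module of Pol I, had 51.8, 50.2 and 52.1 CPM with siNT and 27.5, 28.3 and 28.1 CPM with siMyc, a log2 fold change of -0.91 ± 0.06 (SE; adjusted p = 4.2e-10). POLR1B, the second largest catalytic subunit, had 61.7, 58.8 and 61.9 CPM with siNT and 32.0, 31.7 and 36.1 CPM with siMyc. Its log2 fold change was -0.90 ± 0.06 (SE; adjusted p = 9.1e-10), and like POLR1E it showed no overlap between groups.

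POLR1G had 41.2, 36.8 and 40.2 CPM with siNT and 24.2, 23.5 and 24.6 CPM with siMyc (log2 fold change -0.74 ± 0.06 SE, adjusted p = 2.5e-08). POLR1C, which forms with POLR1D the assembly platform shared by Pol I and Pol III, had 31.7, 32.5 and 32.4 CPM with siNT and 22.8, 21.7 and 19.0 CPM with siMyc (-0.64 ± 0.07 SE, adjusted p = 7.5e-07). POLR3K, a small Pol III subunit involved in termination, had 14.9, 13.8 and 14.5 CPM with siNT and 9.61, 9.48 and 8.88 CPM with siMyc (-0.66 ± 0.08 SE, adjusted p = 2.2e-06). In these 3 genes, too, every siMyc library lay below every siNT library.

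By role, the median log2 fold change was -0.64 over the 6 Pol I subunits, -0.30 over the 10 Pol III subunits, -0.17 over the 7 Pol I initiation and termination factors and -0.18 over TFIIIA and the TFIIIC subunits, against 0.01 over all genes tested. Among Pol I factors, TAF1D (-0.52), TAF1A (-0.45) and RRN3 (-0.32) fell, whereas UBTF (-0.12), TTF1 (-0.16), TAF1C (-0.17) and TAF1B (-0.06) did not pass the test. RRN3 has near-identical pseudogene copies, so its counts are less certain. Of TFIIIB, the factor that places Pol III at the start site, BDP1 fell (-0.33), and BRF1 (0.02) and BRF2 (-0.23) did not pass the test.

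TFIIIA (GTF3A, -0.18) and 4 TFIIIC subunits fell, with GTF3C2 at -0.29, GTF3C4 at -0.25, GTF3C6 at -0.24 and GTF3C5 at -0.18, while GTF3C1 (0.03) and GTF3C3 (-0.02) did not pass the test. CRCP (-0.05) was the Pol III subunit that passed in neither direction. MAF1, which binds and silences Pol III, had 213, 240 and 212 CPM with siNT and 266, 256 and 250 CPM with siMyc. It rose by a log2 fold change of 0.18 ± 0.05 (SE; adjusted p = 0.012).

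The groups did not overlap, with lower siMyc levels, for 28 of the 36 genes, against 23.2% of genes averaging 1 CPM or more, and with higher levels for 2 genes, against 31%.

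**Figure D2:**
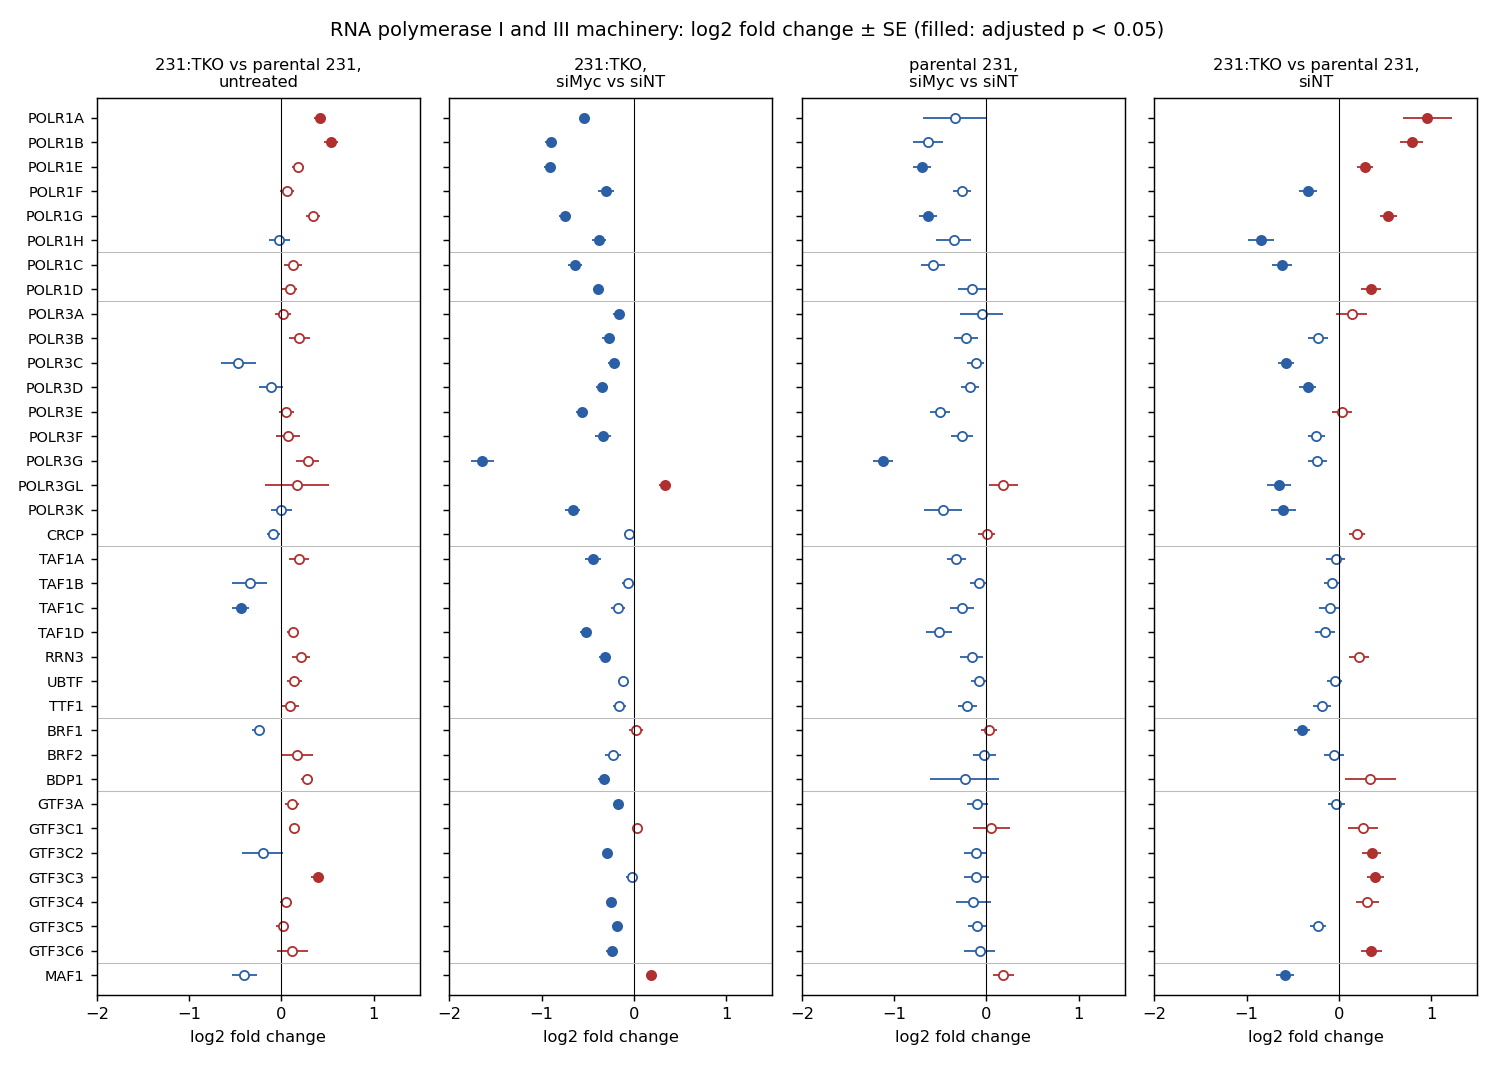
Log2 fold change with its SE (horizontal axis) of the 36 genes, ordered by role from Pol I subunits at the top to MAF1 at the bottom, in 4 comparisons; filled points passed an adjusted p of 0.05, red is higher and blue lower in the first-named group. Filled blue points mark 25 genes after siMyc in 231:TKO cells and 3 genes in parental 231 cells.

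In parental 231 cells, 3 of the 36 genes fell after siMyc and 0 rose, against 0.354% and 0.24% of the 23728 genes tested. Among genes averaging 1 CPM or more, 0.623% fell and 0.423% rose. The 3 genes were POLR3G, POLR1E and POLR1G. POLR3G had 15.7, 16.5 and 14.7 CPM with siNT and 7.74, 7.04 and 6.71 CPM with siMyc, a log2 fold change of -1.12 ± 0.11 (SE; adjusted p = 0.0297). POLR1E had 40.7, 44.8 and 44.4 CPM with siNT and 26.3, 27.2 and 26.1 CPM with siMyc (-0.70 ± 0.09 SE, adjusted p = 0.0378), and POLR1G had 28.0, 26.6 and 29.3 CPM against 17.8, 17.4 and 18.7 CPM (-0.63 ± 0.10 SE, adjusted p = 0.0443). None of the 3 genes overlapped between the groups. No call remained without parental 231+siNT replicate 2 or 3 or without parental 231+siMyc replicate 1 or 2, where the log2 fold change of POLR3G stayed between -1.18 and -1.08.

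The pair of libraries that stood apart bears on this count. With a factor for that pair, 21 of the 36 genes fell and 2 rose, against 13.1% and 13.7% of all genes tested. With the pair left out, 19 fell and 2 rose, against 10.9% and 9.94%. With the factor, 19 of the 21 genes were among the 25 that fell in 231:TKO cells, and the others were TAF1C and TTF1. The genes that rose were POLR3GL (0.19 ± 0.06 SE, adjusted p = 0.0087) and MAF1 (0.18 ± 0.04 SE, adjusted p = 0.00055), as in 231:TKO cells, and POLR3G kept a log2 fold change of -1.12 (adjusted p = 5.7e-16), with POLR1E at -0.70 and POLR1G at -0.63. Both settings were chosen once the data were known.

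By role and with the factor, the median log2 fold change in parental 231 was -0.49 over Pol I subunits, -0.20 over Pol III subunits, -0.21 over Pol I factors and -0.10 over TFIIIA and TFIIIC, with all 6 Pol I subunits and both shared subunits falling. The comparisons in 231:TKO and parental 231 cells share no library. As fitted without the factor, the log2 fold change had the same sign in both for 35 of the 36 genes, and for 30 it was larger in size in 231:TKO cells. With the factor these counts were 36 and 30. The same counts over all genes were not made, so these do not show whether the 36 genes stand out.

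**Figure D3:**
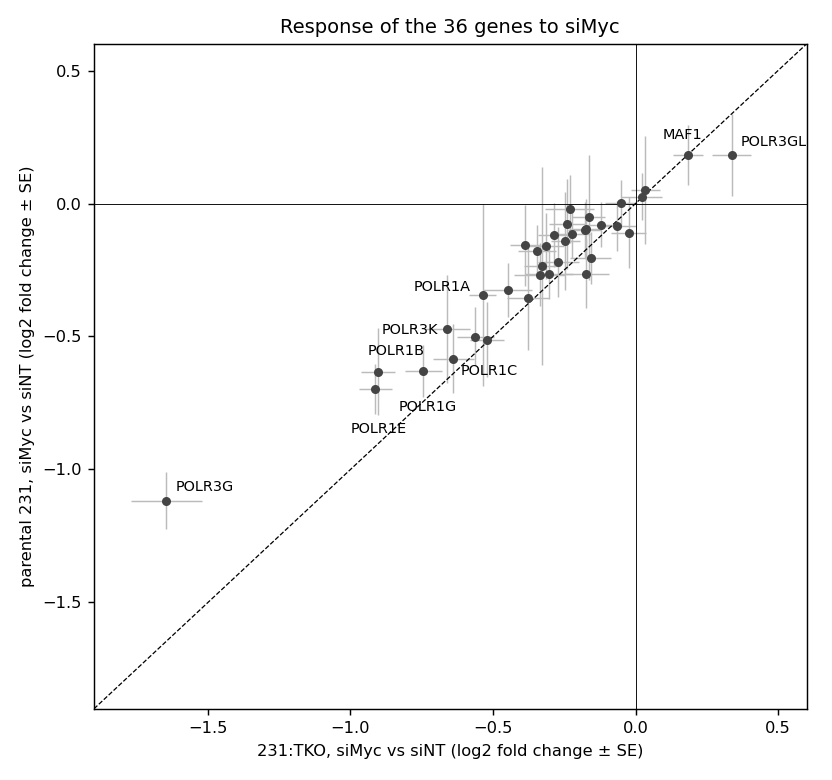
Log2 fold change after siMyc in 231:TKO cells (horizontal axis) against parental 231 cells (vertical axis) for the 36 genes, with SE bars; the dashed line marks equal change. POLR3G lies lowest on both axes, at -1.65 and -1.12, and POLR3GL and MAF1 lie above 0 on both.

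Whether the response itself differed between the populations was tested by an interaction over the 12 siRNA libraries. None of the 36 genes passed (0 of 25812 genes did, 0%), while 1039 genes had an unadjusted p under 0.05 and DESeq2 called 6 genes. For POLR3G the difference of log2 fold changes, 231:TKO minus parental 231, was -0.50, with an adjusted p of 1.0 as fitted, of 0.109 with the factor for the pair and of 0.16 with the pair left out. A p above the threshold does not show that the responses were alike.

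The balance between the paralogs was followed as the log2 ratio of POLR3G to POLR3GL counts per kilobase, which needs no scaling between libraries. POLR3G made up 24.7% to 27.9% of the pair in 231:TKO+siNT and 7.16% to 10.6% in 231:TKO+siMyc libraries. In parental 231 cells it made up 18.4% to 25.4% with siNT and 8.46% to 11.6% with siMyc. The difference in mean log2 ratio, siMyc minus siNT, was -2.02 in 231:TKO and -1.31 in parental 231 cells, without overlap in either, and in each case the exact two-sided permutation test over libraries gave p = 0.1, the smallest that 3 against 3 libraries allow. Between 231:TKO+siNT and parental 231+siNT the log2 ratio differed by 0.40 (exact permutation p = 0.2), and between the siMyc groups by -0.31 (exact permutation p = 0.3).

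Myc binds the E-box CACGTG, which reads the same on both strands, so the promoters of the 36 genes were searched for these letters from 250 bases before to 50 bases after the gene's start (RefSeq, GRCh38.p14). Promoter sequences were matched for 30 genes. POLR3G, POLR1E, POLR3D, CRCP, BRF2 and MAF1 had no entry. CACGTG was found in 7 of the 30 windows (23.3%), against 7.43% of all 27305 promoters and 8.88% of the 15843 promoters of protein-coding genes. The 7 genes were POLR1G, POLR3A, POLR3C, POLR3E, GTF3C2, GTF3C4 and GTF3C6. The shares over all promoters were not limited to genes expressed in these cells. All 7 were among the 22 genes with a promoter sequence that fell after siMyc in 231:TKO cells, most of which lacked the letters. None of the 8 other genes held them. The same split over all genes was not made, so these counts do not show a link between the letters and the fall. A match describes the letters only, since no binding was measured here.

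Counted from the gene's start, the letters began at position -12 in POLR1G, -35 in GTF3C4, -142 in GTF3C6, -35 in POLR3A, -196 in POLR3C, -103 in GTF3C2 and -1 in POLR3E. The upstream 250 bases are shown for POLR1G, GTF3C4 and GTF3C6 as examples that hold the letters, and for POLR3GL, which rose and lacks them (CACGTG in capitals). These 4 are on the + strand.
POLR1G (chr19:45406394-45406643): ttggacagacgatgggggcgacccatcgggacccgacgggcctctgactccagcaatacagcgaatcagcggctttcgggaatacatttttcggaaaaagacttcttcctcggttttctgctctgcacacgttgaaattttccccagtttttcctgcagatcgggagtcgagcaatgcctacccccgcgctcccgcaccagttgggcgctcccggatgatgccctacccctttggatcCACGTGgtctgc
GTF3C4 (chr9:132669785-132670034): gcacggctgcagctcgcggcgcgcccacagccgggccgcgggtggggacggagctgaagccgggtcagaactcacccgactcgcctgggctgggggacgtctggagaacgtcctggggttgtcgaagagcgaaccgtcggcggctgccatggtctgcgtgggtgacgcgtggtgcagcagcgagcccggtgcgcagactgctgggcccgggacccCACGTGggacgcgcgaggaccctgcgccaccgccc
GTF3C6 (chr6:110958456-110958705): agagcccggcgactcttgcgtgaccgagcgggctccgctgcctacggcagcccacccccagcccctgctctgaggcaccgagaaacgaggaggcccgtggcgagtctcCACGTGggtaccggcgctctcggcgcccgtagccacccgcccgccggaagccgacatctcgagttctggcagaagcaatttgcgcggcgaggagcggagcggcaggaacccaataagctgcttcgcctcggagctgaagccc
POLR3GL (chr1:145964440-145964689): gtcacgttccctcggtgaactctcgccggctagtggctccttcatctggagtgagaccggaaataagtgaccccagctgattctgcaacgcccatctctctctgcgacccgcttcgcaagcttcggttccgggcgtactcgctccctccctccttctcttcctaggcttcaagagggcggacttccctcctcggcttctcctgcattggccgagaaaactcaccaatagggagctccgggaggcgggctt
The log2 fold change after siMyc in 231:TKO cells was -0.74 for POLR1G, -0.25 for GTF3C4 and -0.24 for GTF3C6, and among the other genes with the letters it was -0.56 for POLR3E, -0.29 for GTF3C2, -0.22 for POLR3C and -0.16 for POLR3A. POLR1B, with a log2 fold change of -0.90, held no CACGTG in its window.

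Other genes of the same machinery were counted for context, from lists chosen by function. After siMyc in 231:TKO cells, the subunits POLR2F (-0.51) and POLR2H (-0.48), which all 3 polymerases share, fell, and POLR2E (-0.01), POLR2K (-0.14) and POLR2L (0.12), shared in the same way, did not pass the test. Of the 7 subunits used only by Pol II, 6 fell, with a median log2 fold change of -0.26. Of TBP and the 5 SNAPc subunits, which serve snRNA promoters, 2 fell. Of 6 regulators of ribosomal DNA transcription, 4 fell, led by NOLC1 (-0.96), MYBBP1A (-0.71) and TCOF1 (-0.67). Of the products of Pol III itself, RN7SK and RMRP had 0 counts in all 16 libraries, and RN7SL1, RN7SL2 and RPPH1 were not matched by symbol and were not analysed here. In poly(A)-captured RNA such counts do not show whether these products were made, so the output of Pol III was not measured.

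The effect of TXNIP loss without siRNA was compared between untreated 231:TKO and parental 231 cells. Of the 36 genes, 3 were higher and 1 was lower in 231:TKO cells, against 5.43% and 4.18% of the 19965 genes tested, shares near those of all genes. Among genes averaging 1 CPM or more, 8.35% were higher and 5.41% lower. TXNIP itself, the edited gene, did not pass in this fit (-3.29 ± 0.65 SE, adjusted p = 0.0587). A gene that did not pass here may therefore still differ. The median log2 fold change over the 36 genes was 0.10, against 0.00 over all genes. POLR1A, the largest catalytic subunit of Pol I, had 178 and 173 CPM in parental 231 and 237 and 234 CPM in 231:TKO (0.41 ± 0.06 SE, adjusted p = 0.0181). POLR1B had 54.2 and 56.0 CPM against 83.6 and 77.2 CPM (0.54 ± 0.07 SE, adjusted p = 0.0178). Both were higher in each 231:TKO library than in each parental library.

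GTF3C3, a TFIIIC subunit, had 36.2 and 36.5 CPM in parental 231 and 48.5 and 47.5 CPM in 231:TKO (0.39 ± 0.07 SE, adjusted p = 0.035). TAF1C, an SL1 subunit, had 24.8 and 24.1 CPM against 17.9 and 18.4 CPM (-0.44 ± 0.09 SE, adjusted p = 0.0474). With 1 library left out, a lone library is assumed to vary like the other group, and the calls changed with the library left out. In such fits the log2 fold change stayed between 0.39 and 0.43 for POLR1A, 0.47 and 0.59 for POLR1B, and 0.37 and 0.40 for GTF3C3. For TAF1C it stayed between -0.47 and -0.43.

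POLR1B and GTF3C3 both lie on chromosome 2, at chr2:112541915-112579818 and chr2:196763035-196799725 (GRCh38). Genes within 10 Mb of them that averaged 1 CPM or more had like values. The median log2 fold change of 64 such neighbours of POLR1B was 0.50, and that of 81 neighbours of GTF3C3 was 0.49, so that these genes differed from their neighbours by 0.04 and -0.10. For POLR1A, on the same chromosome, 44 neighbours had a median of -0.07, and for TAF1C, on chromosome 16, 86 neighbours had a median of -0.08. The part of these regional shifts in the calls was not tested.

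The Pol III subunits did not pass in this comparison. POLR3G had 19.4 and 19.8 CPM in parental 231 and 21.8 and 26.2 CPM in 231:TKO (0.28 ± 0.12 SE, adjusted p = 0.227, and 0.40 without 231:TKO replicate 1). POLR3GL had 13.8 and 14.0 CPM in parental 231 and 10.6 and 20.9 CPM in 231:TKO, so that one knockout library lay below and the other above the parental libraries. Its log2 fold change was 0.17 ± 0.34 (SE) and became -0.41 without 231:TKO replicate 2. The share of POLR3G in the paralog pair was 38.7% and 38.9% in parental 231 and 48.1% and 36% in 231:TKO libraries (exact permutation p = 1, where 2 against 2 cannot go below 0.3333).

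With siNT, 231:TKO and parental 231 cells differed in 17 of the 36 genes, 8 higher and 9 lower, against 16.1% and 20.7% of the 23310 genes tested. Among genes averaging 1 CPM or more, 22.4% were higher and 28.3% lower, and the shares of the 36 genes were near these. The calls named below therefore do not set the 36 genes apart. In 1 fit of the 12 siRNA libraries with the factor for the pair that stood apart, 10 were higher and 12 lower, against 19.6% and 24.3% of 25812 genes. As fitted without the factor, the Pol I subunits split. POLR1A, POLR1B, POLR1E and POLR1G were higher and POLR1F and POLR1H lower, while POLR3C, POLR3D, POLR3GL and POLR3K were lower. The Pol III subunit CRCP (0.20) did not pass the test but was higher with the factor (0.20 ± 0.06 SE, adjusted p = 0.0042). The shared subunits also split, with POLR1D higher and POLR1C lower. Without 231:TKO+siNT replicate 1, 11 of the genes passed, and the share of all genes in that fit is not given here.

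POLR1A had 189, 190 and 192 CPM in 231:TKO+siNT and 55.9, 116 and 129 CPM in parental 231+siNT (log2 fold change 0.96 ± 0.27 SE, adjusted p = 0.0232). The lowest value belongs to parental 231+siNT replicate 1, one of the pair that stood apart, and without it the log2 fold change was 0.68 (adjusted p = 4.9e-17). The gene's annotated length is 13519 bases in the release used for the 231:TKO libraries and 19694 bases in the other. POLR1B had 61.7, 58.8 and 61.9 CPM against 29.5, 36.3 and 42.7 CPM (0.79 ± 0.13 SE, adjusted p = 0.00059). Without parental 231+siNT replicate 1 its log2 fold change was 0.67. With all libraries, 74 neighbours had a median log2 fold change of 0.47, and POLR1B exceeded it by 0.31.

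POLR1H, a small subunit of Pol I that aids transcript cleavage, had 15.4, 15.5 and 14.8 CPM in 231:TKO+siNT and 35.1, 23.5 and 25.7 CPM in parental 231+siNT (-0.85 ± 0.14 SE, adjusted p = 0.00068). POLR1C had 31.7, 32.5 and 32.4 CPM against 58.7, 48.4 and 45.2 CPM (-0.62 ± 0.11 SE, adjusted p = 0.00094). POLR3K had 14.9, 13.8 and 14.5 CPM against 27.8, 18.6 and 20.9 CPM (-0.60 ± 0.14 SE, adjusted p = 0.0055). In all 3 genes the groups did not overlap, and parental 231+siNT replicate 1 held the highest value. Without it the log2 fold change was -0.64 for POLR1H (adjusted p = 6.4e-11), -0.49 for POLR1C (adjusted p = 1.2e-09) and -0.40 for POLR3K (adjusted p = 3.5e-05).

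**Figure D4:**
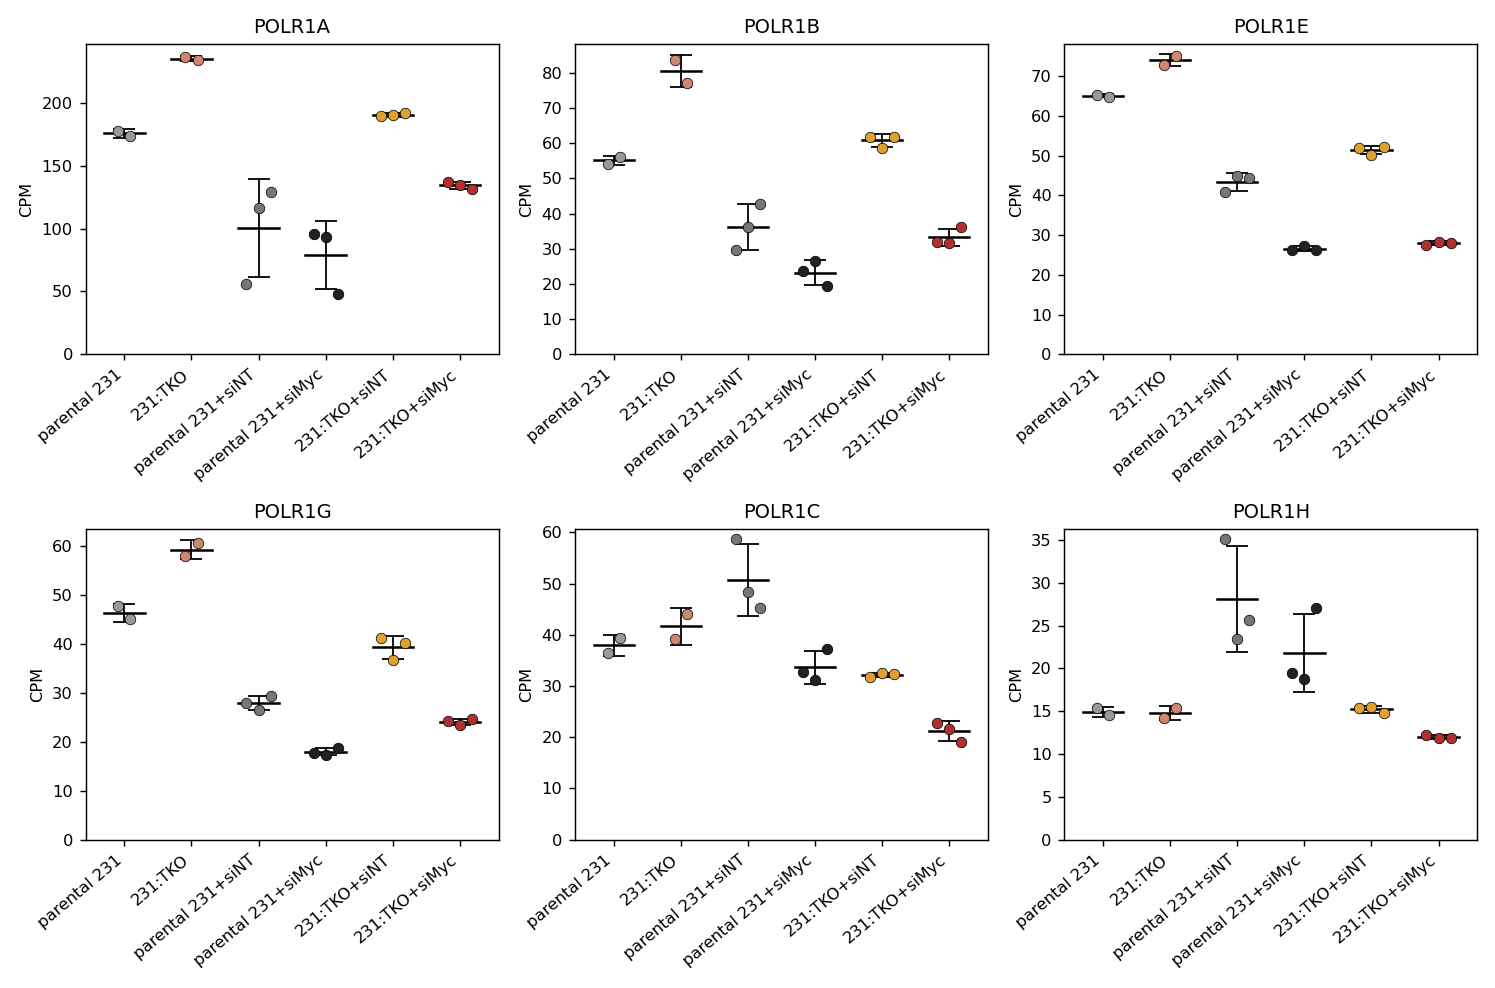
CPM of 6 subunits of Pol I, POLR1C being shared with Pol III, in every library of the 6 groups; points are libraries, bars the mean and SD. POLR1A, POLR1B, POLR1E and POLR1G lie higher in 231:TKO+siNT than in parental 231+siNT libraries and POLR1C and POLR1H lower, and the 6 parental siRNA libraries range from 47.6 to 129 CPM for POLR1A.

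POLR3GL had 15.4, 16.7 and 15.8 CPM in 231:TKO+siNT and 31.4, 21.8 and 24.1 CPM in parental 231+siNT (-0.65 ± 0.13 SE, adjusted p = 0.0024), and POLR3G did not pass the test (-0.23 ± 0.10 SE, adjusted p = 0.0916). Without parental 231+siNT replicate 1 the values were -0.47 for POLR3GL (adjusted p = 6.4e-07) and -0.21 for POLR3G, which then passed (adjusted p = 0.0453). POLR3GL is a neighbour of TXNIP, the edited gene: a gap of 13.6 kb separates them on chromosome 1. POLR3C, another subunit of the same heterotrimer, lies 148 kb from TXNIP. It was lower as well, at -0.58 with that library (± 0.09 SE, adjusted p = 0.00037) and without it.

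Of the 12 other genes measured within 500 kb of TXNIP, 8 were lower and 1 was higher in 231:TKO+siNT, with a median log2 fold change of -0.86 and a range of -3.45 (ITGA10) to 0.93. In the untreated comparison the 9 other genes tested there had a median of -0.13, and 0 of them passed. Over the 162 neighbours within 10 Mb of POLR3C, the median under siNT was -0.09. The part of the edited locus in the lower POLR3GL and POLR3C levels was not tested.

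**Figure D5:**
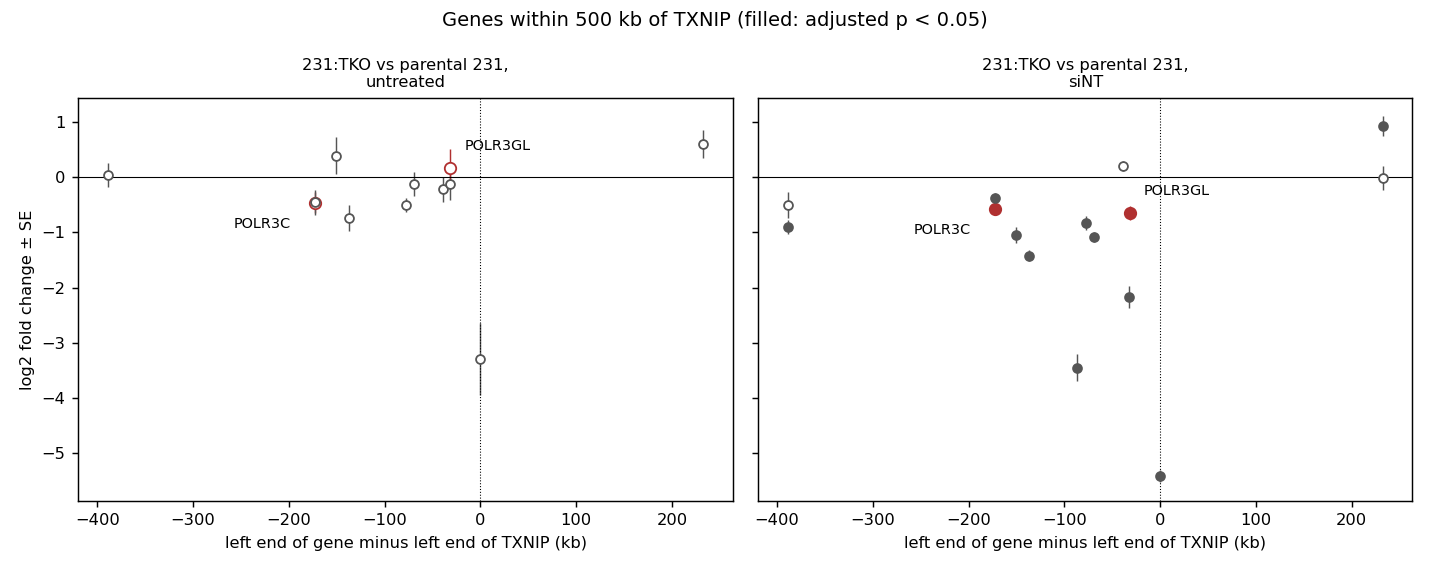
Log2 fold change with SE (vertical axis) of genes within 500 kb of TXNIP against the distance of the gene's start from that of TXNIP in kb. The panels show 231:TKO against parental 231 untreated (left) and with siNT (right). For genes on the - strand, such as TXNIP, the start is the right end, although the axis label reads left end. Filled points passed an adjusted p of 0.05, and POLR3GL and POLR3C are in red. With siNT, POLR3GL at -0.65 and POLR3C at -0.58 lie among neighbours of which 8 of 12 were lower, and TXNIP itself is the lowest point in both panels.

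With siMyc in both populations, 4 of the 36 genes were higher and 11 lower in 231:TKO than in parental 231 cells, against 18.8% and 21.7% of the 23561 genes tested. Among genes averaging 1 CPM or more, 25.3% were higher and 29.5% lower. With the factor for the pair in the fit of 12 libraries, 7 were higher and 14 lower, against 21.7% and 23.7% of 25812 genes. The 4 higher genes, POLR1A (0.78), POLR1B (0.52), GTF3C3 (0.49) and POLR1G (0.43), were also higher under siNT. The neighbours within 10 Mb had medians of 0.47 for POLR1B, 0.37 for GTF3C3, 0.13 for POLR1A and -0.17 for POLR1G. The part of regional shifts in these calls was not tested. Without parental 231+siMyc replicate 3, which had 47.6 CPM of POLR1A, the value of POLR1A was 0.51 (adjusted p = 1.1e-07), and the others were 0.42 for POLR1B, 0.37 for GTF3C3 and 0.46 for POLR1G. POLR3G was lower here, at 3.46 to 5.56 CPM against 6.71 to 7.74 CPM (-0.76 ± 0.16 SE, adjusted p = 0.0024), as were POLR3GL (-0.49), POLR3C (-0.67), POLR3K (-0.78) and MAF1 (-0.57). Without the same library these were -0.80 for POLR3G, -0.40 for POLR3GL, -0.71 for POLR3C, -0.57 for POLR3K and -0.49 for MAF1.

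The knockout's effect was also compared between siNT-treated and untreated cells, which differ in siRNA, read type and header prefix at once. The difference passed for 2 of the 36 genes, POLR1H and POLR1C, both lower, against 7.91% lower and 6.2% higher among the 25112 genes tested. POLR1H had 15.4 and 14.5 CPM in untreated parental 231 and 14.2 and 15.4 CPM in untreated 231:TKO, and POLR1C had 36.5 and 39.4 CPM against 39.1 and 44.1 CPM. For POLR1H the 231:TKO+siNT libraries, at 14.8 to 15.5 CPM, lay near these values and the parental 231+siNT libraries, at 23.5 to 35.1 CPM, above them. For POLR1C the 231:TKO+siNT libraries lay below all 4 untreated libraries and the parental 231+siNT libraries above them.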

How the data were processed

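RNA from 16 libraries of MDA-MB-231 cells was examined. The authors aligned reads to GRCh38 with STAR (version not given in the sources used here) and counted them per gene, strand-specifically, with featureCounts 1.6.3, and they deposited raw counts. Headers name Ensembl release 102, or 104 for siRNA-treated parental 231. Untreated libraries were single reads, the others read pairs. Total counts were 18953668 to 59799444 per library.

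Genes with more than 5 counts summed over a comparison's libraries were tested with edgeR 4.0.16 (R 4.3.3; quasi-likelihood test, TMM scaling, robust dispersion, no covariate), Benjamini-Hochberg adjusted over all genes at 0.05. Log2 ratios of POLR3G to POLR3GL used 0.5 added counts and exact permutation tests. Scripts were tested on simulated data. Alternatives were DESeq2 1.42.0, its size factors, other filters, a replicate block, joint fits and left-out libraries. Libraries are named for POLR3G, POLR3GL, up to 6 called genes with the largest change in each of 4 comparisons, and genes with a called interaction. Genes and lists were chosen with earlier results of these data known.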

Additional observations from a re-analysis of the deposited data

Results flagged for a closer look

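The effect of TXNIP loss differed between siNT-treated and untreated cells for 2 of the genes, by an interaction contrast in 1 edgeR fit of 10 libraries. For POLR1H the difference of the log2 fold changes, siNT minus untreated, was -0.83 (adjusted p = 0.0193), and it was -0.68 (adjusted p = 0.0019) without parental 231+siNT replicate 1. The call was lost without untreated parental 231 replicate 1 (adjusted p = 0.0739) or replicate 2 (0.105) and without 231:TKO+siNT replicate 3 (0.0548). For POLR1C the difference was -0.75 (adjusted p = 0.0082), and it was -0.68 (adjusted p = 0.00027) without parental 231+siNT replicate 1. Its call was lost without untreated parental 231 replicate 1 (adjusted p = 0.0679). Both genes lie on chromosome 6. Genes within 10 Mb of POLR1H that averaged 1 CPM or more had a median log2 fold change of -0.42 with siNT. Untreated, that median was -0.04. For the neighbours of POLR1C the medians were -0.43 with siNT and 0.01 untreated. The part of these regional shifts in the 2 calls was not tested. Treatment, read type and header prefix cannot be told apart in this contrast.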

How the results depend on the processing

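All alternatives kept the direction of POLR3G in every comparison. In untreated cells, 4 of the 36 genes passed as fitted, 0 with a replicate block and 0 to 18 with 1 library left out. There the log2 fold change of POLR3G was 0.14 to 0.40 with 1 library left out, passing at 0.40. The log2 ratio of POLR3G to POLR3GL turned from 0.19 to -0.17 without 231:TKO replicate 1 and reached 0.55, and POLR3GL turned from 0.17 to -0.41 without 231:TKO replicate 2 and was 0.57 without replicate 1. The cause was not tested.

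After siMyc in 231:TKO cells the count of 27 became 10 in the fit of 12 libraries. In parental 231 cells the count of 3 became 6 with DESeq2, against 3.86% of all genes. It became 23 with the factor for the pair and 21 with the pair left out, against 26.8% and 20.8%. It was 0 with the replicate block, 7 in the fit of 12 libraries and 0 to 4 with 1 library left out. POLR3G there was -1.12 (adjusted p = 0.396) with the block and -1.18 to -1.08 with 1 library left out. Between the siNT groups the count of 17 ranged from 11 to 23, and POLR3G passed at -0.26 (adjusted p = 0.0258) in the fit of 12 libraries with the factor and at -0.21 without parental 231+siNT replicate 1 (range -0.26 to -0.19). For the knockout's effect between siNT-treated and untreated cells, the count of 2 became 4 with DESeq2, against 15.8% of all genes, and changed with the library left out. Where a count has no share beside it, the share of all genes in that fit is not given here.

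Replicate numbers did not pair the libraries: deviations of same-numbered libraries correlated between -0.24 and 0.41 in siRNA-treated 231:TKO cells, between -0.89 and 0.75 in parental 231 cells, and at 0.03 in untreated cells. The block moved no other count of calls by over 1.5 times. Among results for single genes and other lists, 1154 kept their side of the threshold or their size, 11 newly passed, 75 moved, 1, given above, changed sign and the others no longer passed. Library depth limits low genes little here, since the lowest level of any of the 36 genes was 3.46 CPM.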
